A study of Mus musculus with 2 samples.

Results

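Major histocompatibility complex (MHC) genes were compared between liver RNA of Rcrin conditional knockout mice and liver RNA of WT mice. The 10 genes were chosen by name and function, with earlier results of these data known. Of them 5 belong to the class I pathway (H2-K1, H2-D1, B2m, Tapbp and Nlrc5) and 5 to the class II pathway (H2-Aa, H2-Ab1, H2-Eb1, Cd74 and Ciita). All 10 were found by gene identifier among the 55421 genes of the count tables, and all were among the 12064 genes that were compared, those whose counts averaged 50 or more over the 2 libraries. There was 1 library per genotype, so the spread between mice is unknown and no test was made. The WT library came from Rcrin flox mice, in which the gene is flanked by loxP sites, and the library labelled Rcrin knockout from Rcrin conditional knockout mice. Both are labelled liver at 8 weeks. The Cre driver and the cells it acts in, the strain, the sex and the number of mice per library are not stated in any source used here.

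Class I molecules sit on nearly all nucleated cells and show peptides from the cytosol to CD8+ T cells. Each pairs a heavy chain, such as the products of H2-K1 and H2-D1, with beta-2 microglobulin, the product of B2m. Tapasin, encoded by Tapbp, bridges the empty class I molecule to the peptide transporter, and Nlrc5 is the transcriptional coactivator of class I genes. Class II molecules pair an alpha and a beta chain, are loaded in endosomes and show peptides to CD4+ T cells. The product of Cd74, the invariant chain, keeps the groove closed until then, and Ciita is the master coactivator of class II genes. In liver, class II is known mainly from Kupffer cells, dendritic cells, B cells and sinusoidal endothelium, whereas hepatocytes carry class I.

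The promoters of both classes are known to share a module of X and Y boxes, bound by the RFX, CREB/ATF and NF-Y factors, on which Nlrc5 and Ciita assemble. RefSeq start sites on GRCm38.p6 were found for 6 of the 10 genes (2 sites for H2-K1, of which 1 is shown). The 150 bases before the start are shown for 5 of them, because they let the module be read side by side in class I and class II genes. In the order of the lines they lie at chr17:34000348-34000497 on the minus strand, chr17:35262944-35263093 on the plus strand, chr2:122147537-122147686 on the plus strand, chr17:34287824-34287973 on the minus strand and chr17:34305717-34305866 on the plus strand. Capitals mark TGACG, the core of the CREB/ATF site, and ATTGG, the core of the NF-Y site (CCAAT on the other strand), on either strand, also where 2 copies overlap.
H2-K1: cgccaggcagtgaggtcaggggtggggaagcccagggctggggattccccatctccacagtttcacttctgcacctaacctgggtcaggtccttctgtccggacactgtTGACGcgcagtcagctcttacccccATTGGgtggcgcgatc
H2-D1: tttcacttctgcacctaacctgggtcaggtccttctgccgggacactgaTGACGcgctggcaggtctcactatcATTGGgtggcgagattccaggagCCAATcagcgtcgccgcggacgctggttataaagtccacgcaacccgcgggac
B2m: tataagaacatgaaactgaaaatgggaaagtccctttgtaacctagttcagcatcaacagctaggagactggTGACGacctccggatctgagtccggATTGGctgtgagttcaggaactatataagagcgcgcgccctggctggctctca
H2-Aa: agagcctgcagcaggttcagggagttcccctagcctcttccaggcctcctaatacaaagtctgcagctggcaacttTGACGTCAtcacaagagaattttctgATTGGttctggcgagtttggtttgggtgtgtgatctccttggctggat
H2-Eb1: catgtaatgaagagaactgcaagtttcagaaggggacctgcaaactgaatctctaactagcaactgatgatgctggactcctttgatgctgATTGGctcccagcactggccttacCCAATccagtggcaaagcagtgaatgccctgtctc

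Read in the direction of transcription, TGACG was followed by ATTGG in 4 of these promoters. The gap was 20 bases in H2-K1, H2-D1 and B2m and 21 bases in H2-Aa. The ATTGG of that pair began 16 bases before the start in H2-K1, 76 in H2-D1, 53 in B2m and 48 in H2-Aa. In H2-Eb1 an ATTGG began 59 bases before the start, with no TGACG in the window. The window of Tapbp held neither motif, but its RefSeq start lies 3579 bases inside the gene as annotated by GENCODE, so the start farther upstream was not searched. The start used for H2-D1 lies 364 bases from that of GENCODE. Among 32851 start sites in the table, 24.5% had ATTGG within 150 bases upstream on either strand, 13.3% had TGACG, and 0.122% had the pair on 1 strand with 20 to 21 bases between. That pair was defined after the sequences were read. It stood before 39 genes in all, of which 5 were B2m or H2 genes, the fifth being H2-M3. AANNGAAA, a core of interferon-stimulated elements, was found before 12.4% of start sites, and before H2-K1, H2-D1 and B2m but not H2-Aa, H2-Eb1 or Tapbp. These matches describe letters and not bound sites.

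The Rcrin knockout library held 63587567 counts and the WT library 65121596, and Rcrin, the targeted gene, was not analysed here. Each count was scaled to the library size by TMM, a factor that sets the bulk of genes equal between libraries. Ratios are given as the log2 of knockout over WT, so that -1 and 1 mean 2-fold lower and 2-fold higher. The interval beside a ratio is the exact 95% interval of counting error, which says nothing of the spread between animals. Over all 12064 genes the median log2 ratio was -0.01, and the quartiles were -0.44 and 0.44.

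No MHC gene was 2-fold apart between the libraries: 0 of 10 were higher and 0 of 10 were lower, where 8.45% of all genes compared were higher and 8.61% lower by that limit. The log2 ratios ran from -0.75 for Cd74 to 0.46 for H2-Ab1, so the widest difference was 1.68-fold. Within that range the genes of a class did not move as one. In class I, B2m stood higher in the knockout library and the other 4 lower. In class II, the 3 peptide-binding chains stood higher and the invariant chain lower. By counting error alone, intervals lay wholly above 0 for 4 genes and wholly below 0 for 5, and held 0 for Ciita. At this depth that was common, since 39.3% of all genes compared had an interval wholly above 0 and 40.0% one wholly below.

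**Figure D1:**
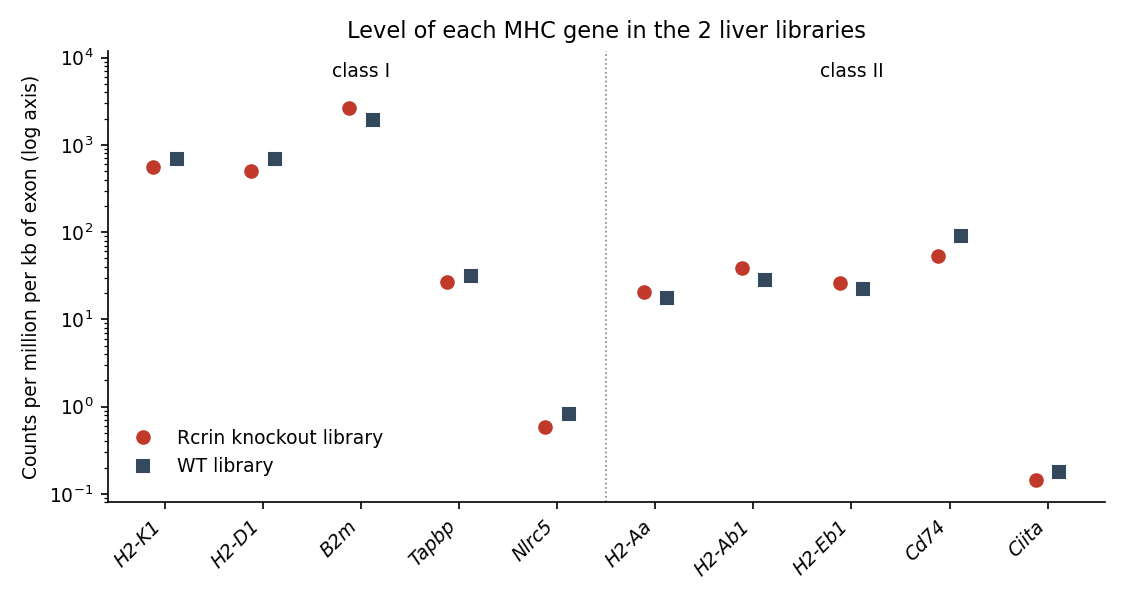
Level of the 10 MHC genes in the Rcrin knockout library (circles) and the WT library (squares), in CPM per kilobase of exon (TMM-scaled counts at a common library size) on a log axis, 1 library each. Class I genes run from Nlrc5 (0.588 in the knockout library and 0.831 in the WT library) to B2m (2641 and 1944), and in every gene the 2 libraries lie close together on this scale.

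The class I heavy chain genes H2-K1 and H2-D1 were among the most abundant liver transcripts, and both stood lower in the knockout library. H2-K1 (ENSMUSG00000061232, GRCm38 chromosome 17 from 33996017 to 34000347, 8 exons) had 103192 counts in the knockout library and 135416 in the WT library. Per length of exon that is a level of 562 CPM (TMM-scaled counts at a common library size) per kilobase in the knockout library and 695 in the WT library, above at least 99.3% of genes compared in each library. Its log2 ratio was -0.31 (interval -0.32 to -0.30). H2-D1 (ENSMUSG00000073411, chromosome 17 from 35262730 to 35267499, 8 exons) had 81790 counts in the knockout library and 118562 in the WT library, a log2 ratio of -0.45 (interval -0.46 to -0.44). The knockout library was thus 1.24-fold and 1.37-fold lower for these genes. Differences of such size were ordinary, since 63.1% of genes compared lay at least as far from 0 as H2-K1 and 48.8% as far as H2-D1.

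Heavy chain genes are close relatives, so reads can be shared between them. Of the 50-base stretches in H2-K1 transcripts, 9.63% also stood in a transcript of another gene, mostly H2-Q10, H2-D1 and H2-Q7, and of those in H2-D1 12.8%. At 100 bases the shares were 0.957% and 3.59%. The read length and the treatment of reads with several matches are likewise not stated, and the reference holds the haplotype of C57BL/6J, whose match to these mice is not known. Sums over the family are therefore given as well. H2-K1 and H2-D1 together took 0.291% of all counts in the knockout library and 0.39% in the WT library, a log2 ratio of -0.37. The other 13 H2 heavy chain genes listed together took 0.441% in the knockout library and 0.355% in the WT library, a log2 ratio of 0.36. Over all 15 the summed log2 ratio was 0.03, so the total of heavy chain reads was nearly equal.

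Most of that second sum was H2-Q10, a heavy chain secreted by hepatocytes that was singled out after its value was seen. It had 224413 counts in the knockout library and 167480 in the WT library, a log2 ratio of 0.51. Within the knockout library H2-Q10 had 1.21 counts for each count of H2-K1 plus H2-D1, against 0.659 in the WT library. H2-Q10 shares 19.1% of its 50-base stretches with other genes, H2-Q7 and H2-K1 foremost.

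B2m, the light chain common to all class I molecules, stood on the other side from H2-K1 and H2-D1. B2m (ENSMUSG00000060802, chromosome 2 from 122147686 to 122153083, 4 exons) had 141909 counts in the knockout library and 110836 in the WT library. Its level was 2641 CPM per kilobase in the knockout library and 1944 in the WT library, the highest of the 10 genes in both libraries, and its log2 ratio was 0.44 (interval 0.43 to 0.45). None of its 50-base stretches stood in another gene. Within a library, a ratio of 2 genes does not depend on scaling: B2m had 0.767 counts for each count of H2-K1 plus H2-D1 in the knockout library and 0.436 in the WT library, 1.76-fold higher. Over all 15 H2 heavy chain genes listed the values were 0.305 in the knockout library and 0.228 in the WT library, 1.335-fold higher. B2m has a GC content of 41.2%, against 55.9% for H2-K1 and 52.8% for H2-D1, and log2 ratios of these libraries drifted with GC content. With that drift removed B2m stood at 0.03, H2-K1 at -0.07 and H2-D1 at -0.32, and the log2 ratio of B2m over both heavy chains became 0.21 where it was 0.81. The contrast of B2m with these 2 heavy chains was thus much smaller with this correction. H2-Q10 stood at 0.69 with it and at 0.51 without.

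Tapasin and the class I coactivator were also lower in the knockout library. Tapbp (ENSMUSG00000024308, chromosome 17 from 33915899 to 33929292, 8 exons) had 6061 counts in the knockout library and 7640 in the WT library, a log2 ratio of -0.25 (interval -0.30 to -0.20), which became 0.01 with the GC trend removed. Of the 50-base stretches of Tapbp, 23.2% also stood in other genes, Gm19412 foremost. Nlrc5 (ENSMUSG00000074151, chromosome 8 from 94434356 to 94527272, 53 exons) had 312 counts in the knockout library and 468 in the WT library, a log2 ratio of -0.50 (interval -0.71 to -0.29). At 0.588 CPM per kilobase in the knockout library and 0.831 in the WT library it was a low transcript, and only Ciita was lower among the 10.

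The 3 peptide-binding class II chains stood higher in the knockout library by small amounts. H2-Aa, the alpha chain (ENSMUSG00000036594, chromosome 17 from 34282744 to 34287823, 5 exons), had 4902 counts in the knockout library and 4381 in the WT library, a log2 ratio of 0.25 (interval 0.19 to 0.31). Its partner H2-Ab1, the beta chain of I-A (ENSMUSG00000073421, chromosome 17 from 34257689 to 34269419, 6 exons), had 6211 and 4791 counts in the knockout and WT libraries, a log2 ratio of 0.46 (interval 0.41 to 0.51). H2-Eb1, the beta chain of I-E (ENSMUSG00000060586, chromosome 17 from 34305867 to 34316674, 6 exons), had 3198 counts in the knockout library and 2844 in the WT library, a log2 ratio of 0.25 (interval 0.18 to 0.33). All 3 stayed close to each other in level, between 20.7 and 38.7 CPM per kilobase in the knockout library and between 17.4 and 28.1 in the WT library. H2-Eb1 had 0.652 counts per count of H2-Aa in the knockout library and 0.649 in the WT library, a ratio that differed by less than counting error. H2-Ab1 had 1.27 counts per count of H2-Aa in the knockout library and 1.09 in the WT library. Less than 1% of the 50-base stretches of these 3 genes stood elsewhere (0.514% in H2-Aa, 0% in H2-Ab1 and H2-Eb1).

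Cd74 had the widest difference of the 10 genes and opposed the chains it serves. With the GC trend removed it stood at -0.51 and H2-Ab1, at 0.71, was the widest. Cd74 (ENSMUSG00000024610, chromosome 18 from 60803848 to 60812652, 10 exons) had 5597 counts in the knockout library and 9980 in the WT library, 1.68-fold lower, with a log2 ratio of -0.75 (interval -0.80 to -0.70). Of all genes compared, 27.0% lay at least as far from 0. Its level was 53.4 CPM per kilobase in the knockout library and 89.7 in the WT library, above each of the 3 chains in both. Cd74 had 0.391 counts for each count of H2-Aa, H2-Ab1 and H2-Eb1 together in the knockout library, against 0.831 in the WT library. The log2 ratio of this proportion was -1.09 (interval -1.15 to -1.03), and it lay between -1.21 and -0.997 against each chain alone. The GC content was 56.0% for Cd74, 51.4% for H2-Aa, 57.5% for H2-Ab1 and 55.4% for H2-Eb1, and with the GC trend removed the proportion stood at -1.03.

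Ciita, the coactivator of class II genes, was a scarce transcript in both libraries. Ciita (ENSMUSG00000022504, chromosome 16 from 10480059 to 10528418, 20 exons) had 87 counts in the knockout library and 114 in the WT library. Its log2 ratio of -0.30 had an interval from -0.72 to 0.11, so no difference was detectable at this depth. At 0.146 CPM per kilobase in the knockout library and 0.18 in the WT library it was the lowest of the 10 genes, above 3.75% of genes compared in the knockout library and 5.16% in the WT library.

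**Figure D2:**
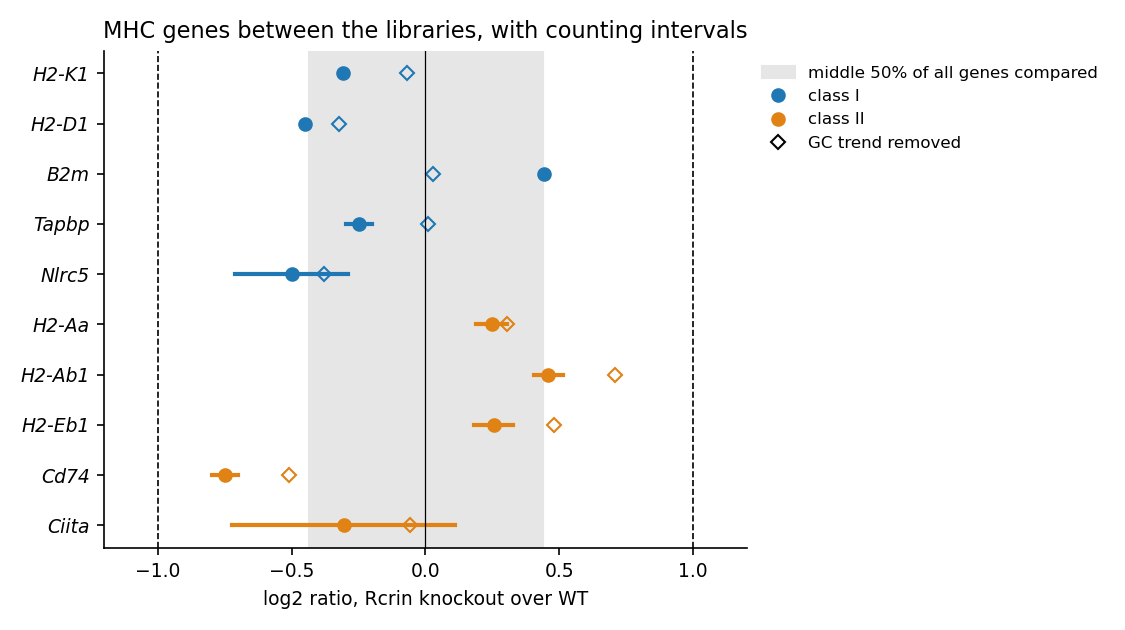
Log2 ratio of the Rcrin knockout library over the WT library for each MHC gene (filled points, with the 95% interval of counting error as a bar) and the same with the trend over GC content removed (open diamonds). The grey band runs between the quartiles of all genes compared (-0.44 to 0.44) and the dashed lines mark 2-fold. All points lie inside the dashed lines, and of the filled ones Cd74 is farthest left at -0.75 and H2-Ab1 farthest right at 0.46.

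**Figure D3:**
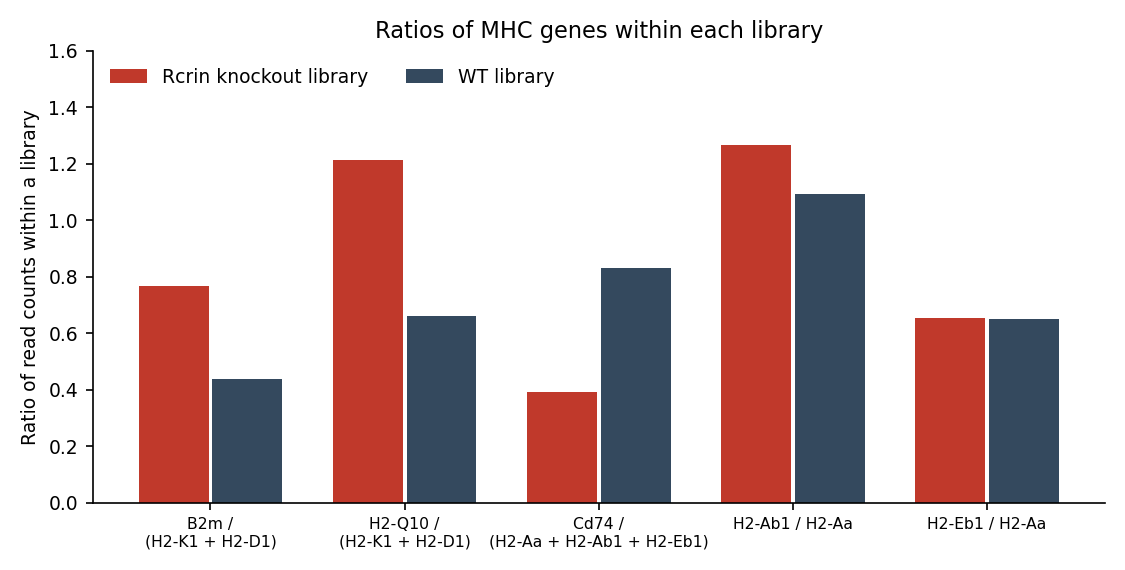
Ratios of read counts between MHC genes within the Rcrin knockout library (left bar of each pair) and the WT library (right bar), 1 library each. B2m over H2-K1 plus H2-D1 is 0.767 in the knockout library and 0.436 in the WT library, Cd74 over the 3 class II chains is 0.391 and 0.831, and H2-Eb1 over H2-Aa is nearly the same in both.

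Set against each other, the median log2 ratio was 0.25 for class II and -0.31 for class I, a difference of 0.55. This difference depended on how each class was summarised. With means the values were -0.02 for class II and -0.21 for class I, a difference of 0.19. With summed counts they were -0.06 and -0.08, a difference of 0.02. Class II genes together held 19995 counts in the knockout library and 22110 in the WT library, and class I genes 333264 and 372922, so class II had 0.06 counts per class I count in the knockout library and 0.0593 in the WT library. With the GC trend removed the medians were 0.30 for class II and -0.07 for class I.

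The other genes of antigen presentation were read from lists by role, given as the number past 2-fold among those compared, and the lists hold the 10 MHC genes as well. Over all genes compared, 8.45% were higher and 8.61% lower by that limit. Of 17 class I heavy chain and class I-like genes, 0 were higher and 3 lower, with a median log2 ratio of -0.15. The 3 were low transcripts: Mr1, which presents vitamin B metabolites to MAIT cells (12 counts in the knockout library and 98 in the WT library), H2-T24 (57 and 165) and H2-Q2 (50 and 125). The highest was H2-T10 at 0.72, a gene that shares 50.4% of its 50-base stretches with others. Of 12 genes of peptide supply and loading, 0 were higher and 1 lower, with a median of -0.33 and 10 of them below 0. That gene was the chaperone calreticulin (Calr), which holds the heavy chain for peptide loading, with 45587 counts in the knockout library and 97325 in the WT library (log2 ratio -1.01). None of the 6 genes of the immunoproteasome and its activator PA28 passed 2-fold (median -0.11), from Psme3 at -0.37 to Psme2 at 0.60.

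On the class II side, none of the 8 chain and chaperone genes compared was past 2-fold, with 4 above 0 and 4 below and a median of 0.08. Those above were H2-Aa, H2-Ab1, H2-Eb1 and H2-Ob (log2 ratio 0.35). Those below were Cd74, H2-DMa (-0.24), H2-DMb1 (-0.09) and H2-DMb2 (-0.48). H2-Eb2 and H2-Oa were too low to be compared. All 9 class II processing and costimulation genes compared lay below 0, with a median of -0.42 and none past 2-fold. Cd40 (59 counts in the knockout library and 38 in the WT library, log2 ratio 0.71) and Cd80 (12 and 29, -1.16) were too low to be compared. Those compared ran from the endosomal protease legumain (Lgmn, 4053 counts in the knockout library and 7927 in the WT library, log2 ratio -0.88) to the costimulator Cd86 (-0.12). The invariant chain stood on the side of the 9 compared and the peptide-binding chains on the other.

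Among 13 transcription factor genes of the MHC, 2 were higher and 0 lower past 2-fold, where all genes compared gave 8.45% and 8.61%. Both higher ones are subunits of the factors that bind the shared promoter module. Rfxap, a subunit of RFX, had 207 counts in the knockout library and 87 in the WT library (log2 ratio 1.33), and Nfya, a subunit of NF-Y, had 310 and 138 (1.25). Their partners Rfx5 and Rfxank stood at -0.29 and -0.07, and Nfyb and Nfyc at 0.82 and -0.05, named after their values were seen. The lowest was Irf8, a myeloid and B cell factor, at -0.96. Of 18 genes of interferon gamma signalling, the main inducer of both classes, 2 were higher and 2 lower, with a median of -0.02. Those shares are near the 8.45% and 8.61% over all genes compared. The higher ones were the GTPases Gbp7 (165 counts in the knockout library and 22 in the WT library, log2 ratio 2.96) and Iigp1 (1.00). The lower ones were the feedback inhibitor Socs1 (34 and 121 counts, -1.73) and the GTPase Irgm1 (-1.39). With the GC trend removed Iigp1 stood at 0.53. Rfxap, Iigp1, Socs1 and Irgm1 have at most 3 exons, a class in which 34.6% of genes compared were past 2-fold, against 13.2% of genes with 7 or more exons. Interferon gamma itself (Ifng) had 2 counts in the knockout library and was listed at 0 in the WT library.

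Markers of the cells that carry class II did not move alike. In bulk liver, fewer cells of a type and less RNA per cell cannot be told apart. Kupffer cell and macrophage markers, 12 of 12 compared, had a median of -0.53, with 1 higher (Vsig4, 1.02) and 1 lower (Cd68, -1.30) past 2-fold. They summed to 1419 CPM in the knockout library and 1990 in the WT library. Dendritic cell markers were scarce: 6 of 12 were compared, and the list summed to 23.8 CPM in the knockout library and 36.3 in the WT library. Irf8 alone held 810 of these counts in the knockout library and 1667 in the WT library, and without it the sums were 10.9 and 11.2 CPM. Among them Itgax stood at -1.17 and Ccr7 at 1.02, and none was at 0. B cell markers, 4 of 10 compared with none past 2-fold, summed to 18.7 CPM in the knockout library and 13.6 in the WT library. Of these the receptor subunits Cd79a (140 and 88 counts in the knockout and WT libraries) and Cd79b (187 and 110) stood at 0.75 and 0.85. Cd22 went the other way, with 118 counts in the knockout library and 187 in the WT library, a log2 ratio of -0.58. Pax5 was listed at 0 in the WT library, with 56 counts in the knockout library, and Cr2 at 0 in both.

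Sinusoidal endothelial markers, 10 of 10 compared, summed to 439 CPM in the knockout library and 454 in the WT library, with a median of -0.34, from Oit3 at -1.13 to Fcgr2b at 1.25. Genes of leukocytes in general, 6 of 6 compared, summed to 91.2 in the knockout library and 159 in the WT library, with Cd53 (-1.44) and Laptm5 (-1.15) lower past 2-fold. The highest of them was Ptprc at 0.09. Neutrophil markers, 8 of 10 compared, had 5 lower (Mpo the lowest at -3.08) and 0 higher past 2-fold and summed to 25.8 and 66.2 CPM in the knockout and WT libraries. The highest compared was Csf3r at -0.61. T and NK cell markers, 7 of 10 compared, had 2 lower (Trac, -1.46, and Cd8a, -1.35) and 0 higher past 2-fold. Over all genes compared 8.61% were lower by that limit. They summed to 11.4 CPM in the knockout library and 14.8 in the WT library. The highest compared was Klrb1c at 0.48. Cd8b1 (69 counts in the knockout library and 28 in the WT library, 1.37) and Ncr1 (40 and 8, 2.33) were too low to be compared. Hepatocyte markers, 10 of 10 compared, ran from Apob at -0.32 to Hnf4a at 1.17, the only one past 2-fold. They summed to 140400 CPM in the knockout library and 91970 in the WT library, and without Alb to 50770 and 41430, so both libraries held the markers of liver. Of the cells known to carry class II, the macrophage sum was lower in the knockout library and the B cell sum higher. The dendritic sum was nearly equal without Irf8. The sinusoidal endothelial sum was nearly equal with all markers. Without Clec4g it was 274 CPM in the knockout library and 331 in the WT library. Over all lists, removing the GC trend took 5 genes within 2-fold and brought 4 past it. Beside Iigp1, those lost were Vsig4 (0.80), Oit3 (-0.97), Laptm5 (-0.97) and the neutrophil marker Camp (-0.90). Those gained were the B cell marker Cd79b (1.02), the neutrophil markers S100a8 (-1.18) and S100a9 (-1.17), and the chaperone gene Canx (-1.22) of the peptide loading list. The part of any of these cells in the MHC values was not tested.

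**Figure D4:**
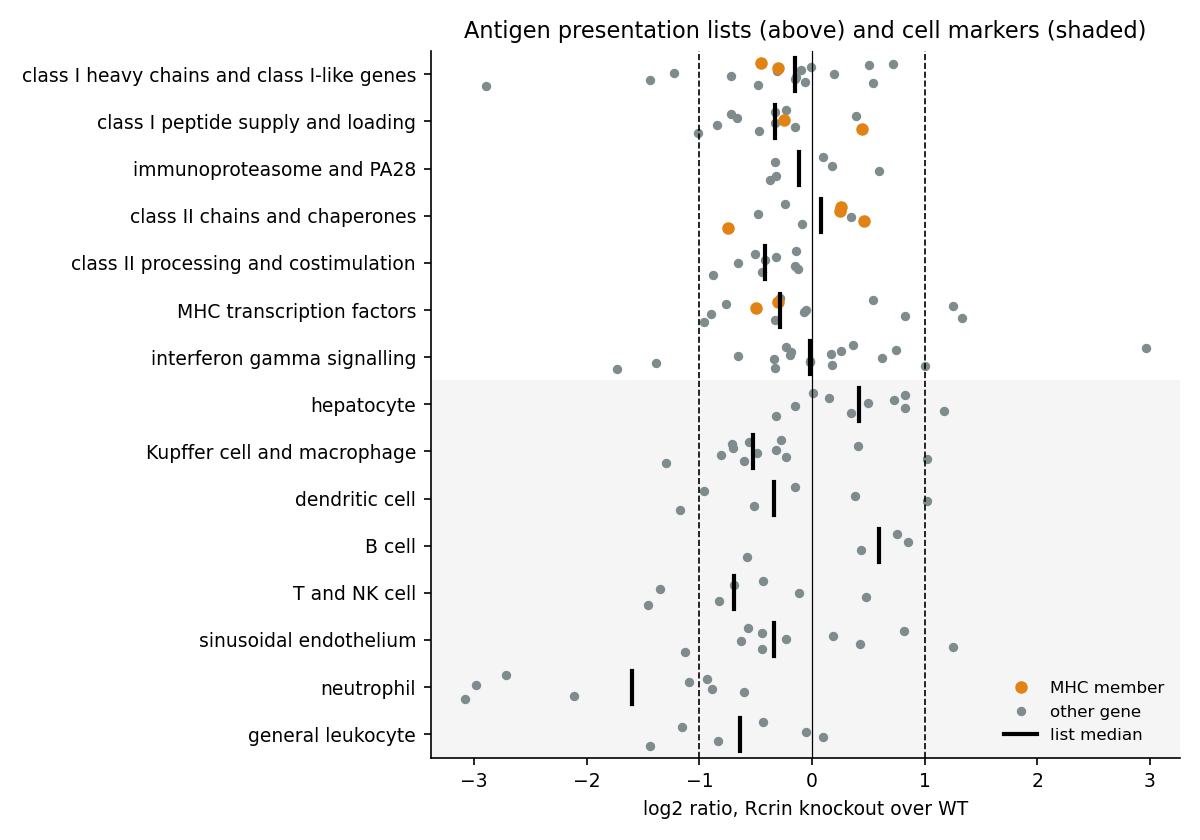
Log2 ratio of the Rcrin knockout library over the WT library for each gene compared in 7 lists of antigen presentation (upper rows) and 8 lists of cell markers (shaded rows). Orange points are the MHC genes described above, black bars are list medians and dashed lines mark 2-fold. The class II processing genes compared all lie left of 0. In the row of class II chains and chaperones, H2-Aa, H2-Ab1, H2-Eb1 and H2-Ob lie right of it. Cd74, H2-DMa, H2-DMb1 and H2-DMb2 lie left.

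Along chromosome 17, 6 of the 10 genes lie within 1.35 Mb, from 33915899 (Tapbp) to 35267499 (H2-D1) on GRCm38. The stretch held 62 other genes that could be compared, of which 46 lay below 0 and 16 above, with a median log2 ratio of -0.25. Past 2-fold, 1 of them was higher (Zbtb12, 2.21, a gene with 3 exons and 98 counts in the knockout library and 22 in the WT library) and 2 were lower (Hspa1b at -2.12, a gene with 1 exon, and the matrix protein gene Tnxb at -1.53). The shares over all genes compared were 8.45% higher and 8.61% lower by that limit. Tapbp, H2-K1 and H2-D1, at -0.25 to -0.45, were thus on the side of most of their neighbours, and H2-Ab1, H2-Aa and H2-Eb1, at 0.25 to 0.46, on the side of the 16. These values hold the GC trend, and the count of 46 was not repeated with it removed. With it removed Tapbp stood at 0.01, H2-K1 at -0.07 and H2-D1 at -0.32. H2-Ab1, H2-Aa and H2-Eb1 then stood at 0.71, 0.30 and 0.48.

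**Figure D5:**
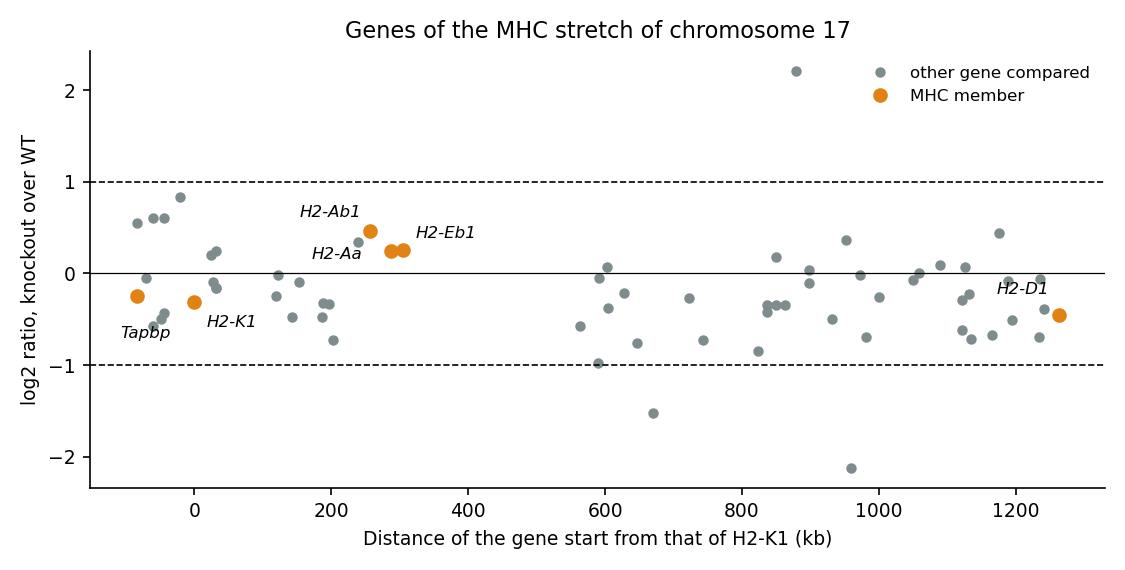
Log2 ratio of the Rcrin knockout library over the WT library for the 68 genes compared between Tapbp and H2-D1 on chromosome 17, by distance of the gene start from that of H2-K1 in kilobases. The 6 MHC genes are orange and the other 62 grey, and dashed lines mark 2-fold. H2-Ab1, H2-Aa and H2-Eb1 form a group above 0, while 46 of the 62 other genes lie below it. Of the other class II genes, H2-DMa, H2-DMb1 and H2-DMb2 lie below 0 and H2-Ob above.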

How the data were processed

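Per the labels' protocols, Trizol-extracted total RNA of liver went into SMARTER mRNA-Seq libraries, for 1 Rcrin knockout and 1 WT library, grouped by the genotype label. The authors deposited whole-number read counts for each Ensembl gene ID, not normalized. The submitters' processing notes name the build GRCm38 (mm10); aligner, counter, strand setting and pooling are not given in the sources used here. Names, positions, exons and merged exon lengths came from GENCODE on GRCm38, in which 55240 of 55421 genes had an entry; the others held at most 0.00956% of a library's counts.

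Counts were scaled with TMM factors (0.982 knockout, 1.02 WT; edgeR 4.0.16, R 4.3.3), and 0.5 reads were added before the log2 ratio. Intervals of a ratio are Clopper-Pearson at 95%, those of a ratio of ratios use the normal approximation on the log scale. Both cover counting error only, as no molecular identifiers are named and reads may repeat a molecule. Levels between genes are CPM per kilobase of merged exon, which may overstate the length in use. The GC trend is a lowess fit over all genes compared (statsmodels 0.14.6). The code was tested on simulated data.

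The members and the 7 pathway and 8 marker lists were chosen with earlier results of these data known. Of a list, genes past 2-fold and the extremes are named (at most 6). Defining markers of antigen-presenting cells and the class II chain and chaperone genes compared are named as well. Any other name, such as Cd40, Cd80, Cd8b1, Ncr1 or Pax5, is to be read as chosen after its value was seen. No gene is named for a pattern like that of the MHC genes, since 2 libraries give no pattern. Alternatives were other scalings (DESeq2 1.42.0 size factors, total count, upper quartile), filters, limits, 5 added reads, the GC trend and other summaries.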

Additional observations from a re-analysis of the deposited data

How the results depend on the processing

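With 1 library per genotype nothing here measures biological spread, no replicate could be left out, and no paired analysis was possible because each genotype has a single library. Of 50 alternative values of the 10 genes (3 scalings, 5 added reads, GC trend removed), 49 kept their sign; the exception was Tapbp at 0.01 with the GC trend removed. None of the 10 genes passed 2-fold under any scaling, filter or added reads, and 1 (Cd74) was lower past 1.5-fold by the main values. With the GC trend removed Cd74, at -0.51, lay within 1.5-fold and H2-Ab1, at 0.71, was higher past it. The class I median was -0.36 with total counts, -0.29 with the upper quartile, -0.0682 with the GC trend removed, -0.21 as a mean and -0.0768 from summed counts. The class II median became -0.018 as a mean and -0.0597 from summed counts, both of which take in Cd74 at -0.75. The summed counts of H2-Aa, H2-Ab1 and H2-Eb1 alone gave 0.34. The cause of the shift was not tested. The difference of class II from class I became 0.37 with the GC trend removed, 0.19 with means and 0.0171 with summed counts. Chosen after seeing the data, the difference of medians was 0.63 without B2m and 0.56 without Cd74. Also chosen after seeing the data, B2m over H2-K1 plus H2-D1 had a log2 ratio of 0.21 with the GC trend removed. It was 0.75 over H2-K1 alone, 0.89 over H2-D1 alone and 0.42 over all H2 heavy chains listed. Cd74 over the class II chains had -0.997 over H2-Aa alone, -1.21 over H2-Ab1 alone, -1.004 over H2-Eb1 alone and -1.03 with the GC trend removed. Genes called higher and lower over the whole table were 3366 and 3556 with no count filter, 452 and 465 with a mean of at least 500 counts, 303 and 338 at 4-fold, and 2289 and 2267 at 1.5-fold, where 1019 and 1039 were called by the main limit. Of the 7 pathway lists, the immunoproteasome median turned to 0.12 with the GC trend removed, and the cause was not tested. Without its most abundant gene, also chosen after seeing the data, each of the 8 marker sums kept its direction, but the dendritic log2 ratio became -0.04 where it was -0.61. Counts of 87 and 114 limit Ciita.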

Other observations

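Outside the lists, 21 further genes carry an H2 name. Of these 16 were at 0 in both libraries, among them H2-Ea-ps, the alpha chain of I-E, which is a pseudogene in C57BL/6 mice and without which the H2-Eb1 protein does not reach the surface there. The transcribed pseudogene H2-K2 had 281 counts in the knockout library and 167 in the WT library, a log2 ratio of 0.83 where H2-K1 stood at -0.31. H2-T-ps had 18 counts in the knockout library and 102 in the WT library, a log2 ratio of -2.39, and shares stretches with H2-T23, which had a log2 ratio of -0.15. H2-Q5 had 257 and 254 counts in the knockout and WT libraries. H2-Ke6, which lies in the region but encodes a steroid and fatty acid dehydrogenase, had a log2 ratio of -0.09. Cd1d1, which presents lipids to NKT cells, had 11737 counts in the knockout library and 8564 in the WT library, a log2 ratio of 0.54, and shares 19.1% of its 50-base stretches with Cd1d2. These genes were chosen after their values were seen.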
